A study of Mus musculus with 3 samples.

Results

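The 40 interferon response genes described here were taken by symbol from the 27999 gene entries of the count tables, and all 40 were listed. They hold the guanylate binding proteins and immunity-related GTPases (12 Gbp and Irg genes, called type II members), 5 Ifit and Oas genes (type I members) and 23 further interferon-stimulated genes. Their expression was measured by droplet single-cell RNA sequencing in mouse brain gliomas, in which each unique molecular identifier (UMI) counts 1 captured messenger RNA at its 3′ end. Levels are given in CPM, a gene's share of all UMIs scaled to counts per 1e6, of the counts summed over the cells of a class in a tumour.

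The 3 tumours formed 1 group with 1 library each and no control group. All were made by MADR, a method that places transgenes at a chosen locus, in brains electroporated at postnatal day 1–2, and all carried H3f3a K27M, Pdgfra D842V and Trp53 R270H in mice with 1 copy of the Luo reporter allele (ACTB-tdTomato,-EGFP) at Gt(ROSA)26Sor, on a B6.129(Cg) background. Collection was at postnatal days 150, 106 and 149 (tumours 1, 2 and 4), and GFP-positive cells were sorted. The labels do not say which cell type took up the constructs, and effects of the tumour, its host, the age and the library run cannot be told apart.

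Interferons are secreted proteins that bind receptors on nearly every cell. Type I interferons, such as interferon beta, act through Ifnar1 and Ifnar2 and a factor complex with Stat2 and Irf9 that binds the interferon-stimulated response element (ISRE). Type II interferon, interferon gamma, acts through Ifngr1 and Ifngr2 and induces genes that carry the gamma-activated site (GAS). The families overlap: Ifit and Oas genes respond mainly to type I, and Gbp and Irg genes strongly to type II, but many answer to either, so the names used here mark gene families and not a measured ligand.

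Many of the genes lie in family clusters. On the GRCm38 (mm10) assembly, Gbp2, Gbp3, Gbp5 and Gbp7 occupied chr3 between 142493978 and 142638008, and Ifit1, Ifit2 and Ifit3 occupied chr19 between 34550694 and 34650009. Chromosome 11 held 10 of the 40, among them Irgm1, Igtp, Irgm2, Tgtp1 and Tgtp2. Promoter windows of 300 bases (250 before to 50 after the start) were available from RefSeq (GRCm38.p6) for 30 of the 40 genes. The 6 windows below are from genes with large values in the results. Each is written in the direction of its gene, and capitals mark matches to the ISRE core (GAAA, any 2 bases, GAAA), on either strand, or the GAS core (TTC, any 3 bases, GAA), which reads the same on both strands.
Gbp2 (type II, chr3:142620413-142620712, plus strand): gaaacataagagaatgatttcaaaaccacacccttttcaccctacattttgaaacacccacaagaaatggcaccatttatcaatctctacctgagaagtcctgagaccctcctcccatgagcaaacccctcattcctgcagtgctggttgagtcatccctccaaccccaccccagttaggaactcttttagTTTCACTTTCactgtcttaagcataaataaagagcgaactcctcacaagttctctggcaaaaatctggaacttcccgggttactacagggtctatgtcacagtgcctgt
Gbp7 (type II, chr3:142530086-142530385, plus strand): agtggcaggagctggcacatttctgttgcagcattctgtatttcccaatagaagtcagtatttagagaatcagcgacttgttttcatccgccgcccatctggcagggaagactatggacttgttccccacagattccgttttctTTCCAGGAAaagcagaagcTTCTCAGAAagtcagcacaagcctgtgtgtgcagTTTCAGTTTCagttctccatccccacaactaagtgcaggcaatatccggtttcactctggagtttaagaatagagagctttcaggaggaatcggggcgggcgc
Igtp (type II, chr11:58199306-58199605, plus strand): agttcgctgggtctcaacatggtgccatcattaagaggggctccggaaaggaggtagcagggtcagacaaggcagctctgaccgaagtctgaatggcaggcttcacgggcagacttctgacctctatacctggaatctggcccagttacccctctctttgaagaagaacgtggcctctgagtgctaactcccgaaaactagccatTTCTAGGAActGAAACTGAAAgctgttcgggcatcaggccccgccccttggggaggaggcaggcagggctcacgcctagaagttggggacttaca
Ifit1 (type I, chr19:34640639-34640938, plus strand): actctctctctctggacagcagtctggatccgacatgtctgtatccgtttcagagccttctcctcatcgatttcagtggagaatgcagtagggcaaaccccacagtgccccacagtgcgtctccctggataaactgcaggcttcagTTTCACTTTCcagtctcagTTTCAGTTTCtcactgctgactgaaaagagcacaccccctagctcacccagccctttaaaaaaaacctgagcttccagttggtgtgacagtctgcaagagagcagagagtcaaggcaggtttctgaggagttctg
Ifit3 (type I, chr19:34583279-34583578, plus strand): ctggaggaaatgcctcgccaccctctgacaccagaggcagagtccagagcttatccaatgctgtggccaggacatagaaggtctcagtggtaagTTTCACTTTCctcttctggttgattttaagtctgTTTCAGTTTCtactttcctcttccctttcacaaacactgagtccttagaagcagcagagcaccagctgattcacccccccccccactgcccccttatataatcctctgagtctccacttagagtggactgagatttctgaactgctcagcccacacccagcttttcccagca
Isg15 (other, chr4:156200769-156201068, minus strand): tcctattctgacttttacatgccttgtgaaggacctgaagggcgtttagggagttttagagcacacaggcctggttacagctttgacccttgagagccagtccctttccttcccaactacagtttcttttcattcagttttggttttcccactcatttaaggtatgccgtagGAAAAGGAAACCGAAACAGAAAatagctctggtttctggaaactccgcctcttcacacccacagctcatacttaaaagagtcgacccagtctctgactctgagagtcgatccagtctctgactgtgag

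The Gbp2 window held 1 ISRE core and the Ifit1 and Ifit3 windows 2 each. The 3 ISRE matches of Isg15, beginning at -78, -72 and -66, overlap in 1 run of letters. In Igtp a GAS core at -45 lies just before an ISRE core at -34, and Gbp7 holds 2 GAS cores and 1 ISRE core. Over the 30 genes, 20 (66.7%) held an ISRE core and 12 (40%) a GAS core in at least 1 window, against 3.99% and 9.55% of the 27025 genes of the table. All 9 type II members with a window held an ISRE core and 6 also a GAS core, while 3 of the 5 type I members held an ISRE core and 2 a GAS core. A match describes letters only, not a bound site.

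The libraries differed in size and make-up. Tumours 1, 2 and 4 held 47120617, 15231673 and 53551127 UMIs, and 3361, 1548 and 4377 cells were kept. Clusters were named by markers. Oligodendrocyte precursor cell (OPC)-like cells, the progenitor class, were 60.9%, 12.2% and 72.9% of the cells of tumours 1, 2 and 4. Tumour 2 stood apart, with fewer UMIs per cell (median 7570.5), the fewest OPC-like cells and a class of 190 astrocyte-like cells. Oligodendrocyte-like cells numbered 315 in tumour 2 and 395 in tumour 4. Myeloid-like cells (microglia-like, with macrophage-like in tumour 2) numbered 168, 398 and 81 in tumours 1, 2 and 4. Neural cells, the sum of neural classes and unnamed neural clusters, numbered 3091, 1069 and 4296. Libraries shared 6 (tumours 1 and 2), 20 (1 and 4) and 11 (2 and 4) cell barcodes.

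In neural cells the 40 genes together had 4645, 6271 and 8737 CPM in tumours 1, 2 and 4 (6551 ± 2060, SD, n = 3). Tumour 4 was thus 1.88 times tumour 1. In OPC-like cells alone the sums were 3776, 3600 and 7812 CPM, so that tumours 1 and 2 lay together and tumour 4 stood above both. This order rests on the clustering: at a coarser Leiden resolution of 0.5 the OPC-like sums were 3464, 9112 and 6707 CPM, with tumour 2 the highest. With 1 library per tumour there is no test between tumours. No fewer than 39 of the 40 genes reached 20 CPM in neural cells of at least 1 tumour, and tumour 4 had the highest level for 22, tumour 2 for 15 and tumour 1 for 3. Within OPC-like cells tumour 4 was highest for 31, tumour 2 for 5 and tumour 1 for 4.

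**Figure D1:**
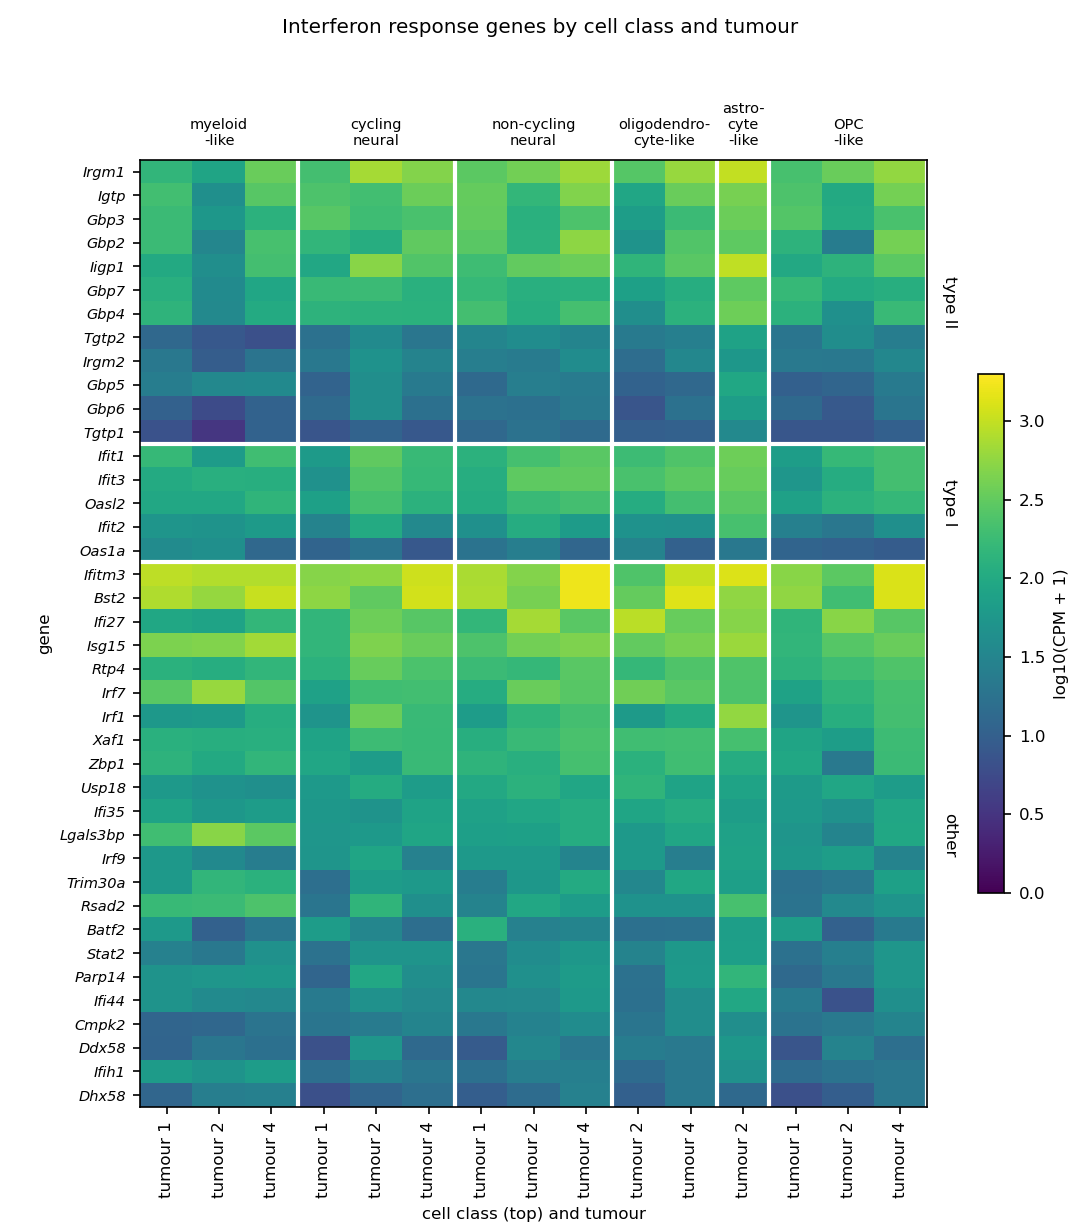
Level of each of the 40 genes (rows; type II, type I and other members from the top) in each cell class and tumour (columns), as log10(CPM + 1) on the colour scale. Of the OPC-like columns, Ifitm3 and Bst2 are brightest in tumour 4, with 1299 and 1282 CPM, and the type II rows of the astrocyte-like column sum to 4049 CPM.

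A few genes made up most of the sum: the 8 with the highest mean level held 56.7% of it in neural cells. Ifitm3, a membrane protein that blocks the entry of enveloped viruses, had 636, 503 and 1464 CPM in tumours 1, 2 and 4. Bst2 (tetherin), which holds budding virus at the cell surface, had 671, 405 and 1471 CPM. Tumour 4 was the high one for both, and tumour 2 the low one. Among the GTPases, Irgm1, which regulates the other immunity-related GTPases, had 255, 460 and 607 CPM. Igtp (Irgm3), of the same regulatory group, had 290, 163 and 438 CPM. Iigp1, an effector GTPase that attacks the vacuoles of intracellular parasites, had 142, 367 and 331 CPM, and Gbp2, a guanylate binding protein with a similar role, 226, 136 and 459 CPM. The GTPases thus did not share 1 order of tumours, since Igtp and Gbp2 were lowest in tumour 2 and Irgm1 and Iigp1 lowest in tumour 1. Isg15, a ubiquitin-like modifier, had 194, 421 and 421 CPM. Ifi27, a small hydrophobic protein of the mitochondrial and nuclear membranes, had 148, 653 and 278 CPM and so was highest in tumour 2.

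The remaining members were lower. In neural cells of tumours 1, 2 and 4, Ifit1 had 96.2, 238 and 245 CPM, Ifit3 78.2, 310 and 257 CPM, and Ifit2 36.6, 114 and 51.7 CPM. These tetratricopeptide proteins bind viral RNA and hinder its translation, and all 3 were lowest in tumour 1. Oasl2 had 91.6, 182 and 184 CPM and Oas1a, a synthetase of the oligoadenylates that activate RNase L, 14.6, 24.9 and 9.62 CPM. Of the other GTPases, Gbp3 had 299, 139 and 238 CPM, Gbp4 179, 123 and 185 CPM, and Gbp7 164, 132 and 123 CPM. Here tumour 1 was high or level with tumour 4. The GTPases with the lowest CPM were Irgm2 at 23.3, 27.8 and 36.2 CPM and Tgtp2 at 23.9, 40.7 and 26.2 CPM. With them were Gbp5 at 11.0, 28.0 and 22.2 CPM, Gbp6 at 14.8, 20.8 and 19.5 CPM and Tgtp1 at 9.72, 15.6 and 10.8 CPM. Reads of Tgtp1 and Tgtp2, which are nearly identical, of the overlapping genes Igtp and Irgm2, and of Gbp6, listed on 2 overlapping entries, could be split or dropped in counting, so these single values are uncertain.

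In OPC-like cells the median gene differed 2.82-fold between its highest and lowest tumour. The widest spread was that of Gbp2, with 135, 23.5 and 412 CPM (tumours 1, 2 and 4), or 17.5-fold. Zbp1, a sensor of Z-form nucleic acid that can start cell death, had 91.4, 20.5 and 179 CPM. Ifi44, whose function is poorly known, had 21.9, 5.87 and 42.4 CPM, and Trim30a, a ubiquitin ligase family protein, 15.9, 19.1 and 74.8 CPM. Bst2 had 566, 195 and 1282 CPM. Each of these 5 was highest in tumour 4, whereas Batf2, a basic leucine zipper factor, was highest in tumour 1, with 67.9, 9.54 and 21.0 CPM.

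The genes were unevenly spread over the cells of a tumour. With every cell thinned to 2000 UMIs, the median neural cell of tumours 1, 2 and 4 held 7, 8 and 17 UMIs of the 40 genes. The 10th to 90th percentiles were 2 to 21, 2 to 33 and 4 to 39 UMIs. Cells with 20 or more made up 11.9%, 22.6% and 43.4% of neural cells. The variance was 9.20, 15.4 and 10.7 times the mean in neural cells, whereas in myeloid-like cells, with medians of 9, 9 and 11 UMIs, it was 4.42, 2.35 and 4.47 times. Neural cells thus held both cells with almost none of these UMIs and cells with many, and the myeloid-like cells lay closer together. Neural cells pool several classes, however. In OPC-like cells alone the variance was 6.18, 4.81 and 8.86 times the mean in tumours 1, 2 and 4. In neuron-like cells it was 4.26 times in tumour 1 and 9.51 times in tumour 4.

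**Figure D2:**
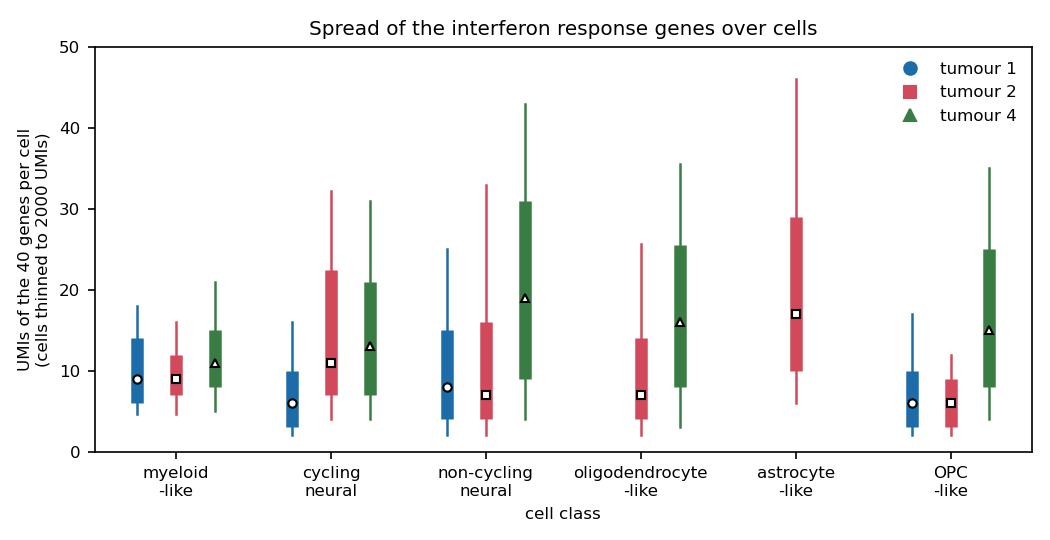
UMIs of the 40 genes per cell after thinning each cell to 2000 UMIs, by cell class and tumour. White symbols are medians, thick bars the 25th to 75th and thin bars the 10th to 90th percentiles of cells. The median is 17 UMIs in astrocyte-like cells of tumour 2 and 6, 6 and 15 UMIs in OPC-like cells of tumours 1, 2 and 4, against 9, 9 and 11 UMIs in myeloid-like cells.

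The uneven spread was also seen between clusters, which were built with the members and listed interferon pathway genes left out of the variable ones. Related genes outside these lists, such as Ifi203, could still enter. The clusters were thus not built free of interferon-induced genes. The summed level ranged from 2468 to 14527 CPM over 11 neural clusters of tumour 1, from 2392 to 13766 over 12 of tumour 2 and from 4893 to 19607 over 14 of tumour 4. The highest cluster of tumour 1 (202 cells) and of tumour 4 (214 cells) stayed unnamed. Both had Hspb1, a small heat shock protein, and the surface antigens Ly6a and Ly6c1 among their 10 leading genes. Those of the tumour 1 cluster also held Gbp2, Ifit2, Ifit3 and Ifi203. The next cluster of tumour 4 (325 cells, 15107 CPM, unnamed) was led by Igfbp2, Gfap and the MHC class II genes H2-Eb1 and H2-Ab1 among others. In tumour 2 the 2 largest of the high neural clusters were an unnamed one of 139 cells (12006 CPM) and the astrocyte-like one of 190 cells (10847 CPM), with median mitochondrial shares of 10.9% and 10.2% of UMIs. Neuron-like cells had 3884 CPM in tumour 1 and 8911 in tumour 4, and unnamed neural clusters together 8075, 7883 and 17094 CPM in tumours 1, 2 and 4.

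The first comparison set neural cells in the cell cycle against those outside it. In tumours 1 and 4 the genes were lower in cycling cells almost throughout, and in tumour 2 they were not. They summed to 3739, 6789 and 6933 CPM in cycling cells of tumours 1, 2 and 4, against 5414, 5991 and 9640 CPM in non-cycling cells. Of the 40 genes, 39 were lower in cycling cells in tumour 1, 15 in tumour 2 and 39 in tumour 4, with median ratios of 0.695, 1.17 and 0.729. Over the 3 sums the exact sign-flip permutation test gave a two-sided p of 0.50. Cycling cells were those with at least 5 UMIs of cell cycle genes among 2000 (1012, 119 and 1082 cells), and non-cycling those with at most 1 (1207, 843 and 2385 cells).

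Across the 3 tumours, edgeR's quasi-likelihood test with the tumour as a block, Benjamini-Hochberg adjusted over all genes, called 1 of the 40 lower and 0 higher in cycling cells. Of all 13709 genes tested, 0.284% were called lower and 3.38% higher (3.66% in either direction). The median log2 fold change was -0.36 for the 40 and -0.05 for all genes. At an unadjusted p under 0.05, 14 of the 40 were lower and 0 higher, against 1248 lower and 1444 higher of all 13709 genes. DESeq2 called 4 of the 40 lower (Bst2, Gbp2, Ifit3 and Irf7) and 0 higher. The gene called by edgeR was Tgtp1, a T-cell-specific guanosine triphosphatase, with 6.41, 10.1 and 7.02 CPM in cycling cells of tumours 1, 2 and 4 against 12.1, 16.5 and 12.8 CPM in non-cycling cells. It fell by 0.89 on the log2 scale (SE 0.158, adjusted p = 0.0444, edgeR), and its groups did not overlap, though both were near 10 CPM and its near copy Tgtp2 was not called.

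The median log2 fold change was -0.59 for the type I, -0.15 for the type II and -0.37 for the other members. Ifit3 had 45.7, 253 and 162 CPM in cycling cells of tumours 1, 2 and 4 against 112, 304 and 311 CPM in non-cycling cells (log2 fold change -0.89, SE 0.215, adjusted p = 0.104, edgeR). Oas1a had 10.6, 17.1 and 7.08 CPM in cycling cells against 16.9, 24.7 and 11.2 CPM in non-cycling cells, with an adjusted p of 0.0807 (edgeR). Both were lower in 3 of 3 tumours but not past the threshold. Gbp7 was the only one of the 40 that was higher in cycling cells in all 3 tumours, with 173, 179 and 124 CPM against 160, 118 and 123 CPM in non-cycling cells, a fitted change of 0.18 (log2, SE 0.163, not called). In tumour 2, Irf1, a transcription factor of the interferon gamma response, had 359 CPM in cycling cells against 144 in non-cycling cells, whereas in tumours 1 and 4 it had 49.998 and 169 CPM in cycling cells against 65.1 and 205 CPM in non-cycling cells.

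Tumour 2 set the count of calls: without it 33 of the 40 were called lower, where 13.8% of all genes were (1890 of 13659), and without tumour 1 or tumour 4 none was. Only 4 cells of tumour 2 were both cycling and OPC-like, so that comparing OPC-like cells alone left tumours 1 and 4, in which 17 were called lower, where 11.5% of all genes were (1546 of 13494). Median UMIs per cell were 15152, 8147 and 11172 in cycling cells of tumours 1, 2 and 4 against 10852, 8044 and 9114 in non-cycling cells, and mitochondrial shares 4.35%, 7.21% and 4.82% against 4.80%, 6.56% and 5.46%. The part of the UMIs per cell was not tested. Without cells over 7% mitochondrial UMIs, a limit chosen after seeing the data, 0 were called, while the cycling over non-cycling ratios of the sum were 0.707, 1.18 and 0.742 in tumours 1, 2 and 4, against 0.691, 1.13 and 0.719 with all cells. Of the 70 other interferon pathway genes tested, 0 were called in either direction (13 nominally lower and 2 higher), with a median of -0.24.

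**Figure D3:**
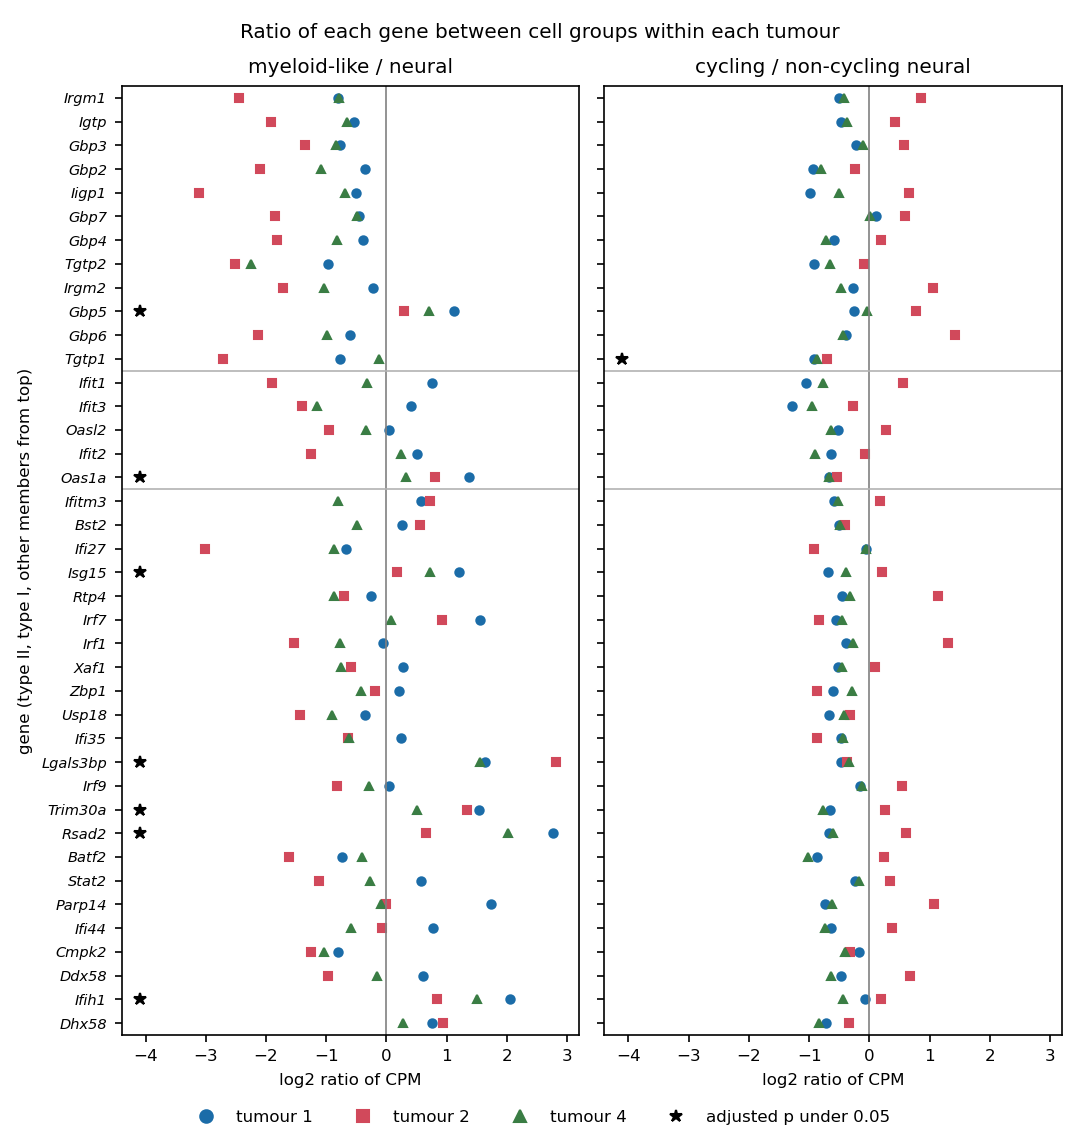
Log2 ratio of CPM for each gene within each tumour, for myeloid-like over neural cells (left) and cycling over non-cycling neural cells (right); stars mark an adjusted p under 0.05 (edgeR). On the right, tumours 1 and 4 lie left of 0 for 39 of 40 genes and tumour 2 is scattered about 0. On the left, 11 of the 12 type II members at the top lie left of 0 in all tumours. The median of all genes also lies left of 0 on that side, at -0.20, -1.10 and -0.38 in tumours 1, 2 and 4.

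The second comparison set myeloid-like cells, sorted with the tumour cells, against neural cells. The RNA sensor Ifih1, the enzymes Rsad2 and Oas1a, Isg15, Lgals3bp, Trim30a and Gbp5 were higher in myeloid-like cells, while 11 of the 12 GTPases had lower values there without passing the test. The 40 genes summed to 5485, 4950 and 6571 CPM in myeloid-like cells of tumours 1, 2 and 4 (5669 ± 826, SD, n = 3), against 4645, 6271 and 8737 CPM in neural cells (exact sign-flip permutation test, two-sided p = 0.50, the smallest possible being 0.25). The edgeR test called 7 of the 40 higher and 0 lower, and of the 12790 genes tested 8.95% were called higher and 0.532% lower (9.48% in either direction). The median log2 fold change was 0.11 for the 40 and -0.16 for all genes. The log2 ratio of CPM of the median gene was -0.20, -1.10 and -0.38 in tumours 1, 2 and 4, so raw CPM of myeloid-like cells read low, most of all in tumour 2.

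Among the genes called, Rsad2 (viperin), an enzyme that makes a chain terminator of viral RNA, had 165, 177 and 235 CPM in myeloid-like cells of tumours 1, 2 and 4 against 24.4, 112 and 57.8 CPM in neural cells. It was higher by 2.31 (log2, SE 0.320, adjusted p = 0.00804, edgeR) and its groups did not overlap. Ifih1 (MDA5), a sensor of long double-stranded RNA, had 63.3, 48.0 and 64.7 CPM in myeloid-like cells against 15.2, 26.8 and 22.8 CPM in neural cells, higher by 1.96 (adjusted p = 0.00382, edgeR). Lgals3bp, a secreted glycoprotein that binds galectins, had the largest fold change, 2.48 (adjusted p = 0.0247, edgeR), with 193, 511 and 296 CPM against 62.3, 72.5 and 100.4 CPM in neural cells. Isg15 had 446, 477 and 698 CPM in myeloid-like cells against 194, 421 and 421 CPM in neural cells. Trim30a (1.63), Oas1a (1.41), Gbp5 (1.2) and Isg15 (1.19) were called with smaller log2 fold changes. Groups overlapped between tumours for Trim30a, Oas1a and Gbp5, though each was higher in all 3.

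Of the 12 type II members, 11 were lower in myeloid-like cells in all 3 tumours, by raw CPM and by the fitted fold change. None of these 11 was called (4 at an unadjusted p under 0.05). Most genes were lower there too. Of all 12790 genes, 8056, 10417 and 8975 were lower by raw CPM in tumours 1, 2 and 4. By the fit 7486 were lower, 1432 of them at an unadjusted p under 0.05. Summed, the type II members had 1127, 384 and 1452 CPM in myeloid-like cells of tumours 1, 2 and 4 against 1638, 1653 and 2497 CPM in neural cells. Tgtp2 came nearest to the threshold, with 12.2, 7.10 and 5.49 CPM in myeloid-like cells against 23.9, 40.7 and 26.2 CPM in neural cells, a fitted change of -1.33 (log2, adjusted p = 0.0616, edgeR), and DESeq2 called it lower. Irgm1 had 145, 84.5 and 350 CPM in myeloid-like cells against 255, 460 and 607 CPM in neural cells, and Iigp1 101, 42.3 and 205 CPM against 142, 367 and 331 CPM. The type I members showed no common direction, with 451, 367 and 529 CPM in myeloid-like cells and 317, 870 and 747 CPM in neural cells. Counts rested on single tumours here too: without tumour 1, 2 were called higher (Ifih1 and Rsad2), and without tumour 2, 10 were called higher and 4 lower. Without the tumour as a block 2 were called higher. The share of all genes called in these fits is not reported here.

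Other cell types' markers ran across both sides. The OPC markers summed to 1600, 166 and 1728 CPM in myeloid-like cells of tumours 1, 2 and 4, against 2692, 2289 and 3437 CPM in neural cells, and of their 14 none was at 0 in myeloid-like cells. The 13 microglia markers summed to 7540, 21190 and 12705 CPM in myeloid-like cells against 140, 632 and 80.5 CPM in neural cells. The part of RNA from one kind of cell in droplets of the other was not tested.

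The ligands themselves were seen in few cells. Of 10 interferon genes listed, 4 had any UMI. Ifnb1, interferon beta, had 42 UMIs in 20 of 168 myeloid-like cells of tumour 1 (11.9%), 50 in 39 of 398 of tumour 2 (9.80%) and 64 in 23 of 81 of tumour 4 (28.4%). Neural cells had 3 UMIs among 3091 cells in tumour 1 (0.0971% of cells), 4 among 1069 in tumour 2 (0.374%) and 0 among 4296 in tumour 4, which allows up to 0.0698% of cells with a UMI (3 counts; counting error only). Such a limit is on cells with a UMI, not on cells that express the gene. Median depths were 13159.5, 7231.5 and 8897 UMIs in myeloid-like cells and 11978, 8062 and 9496 UMIs in neural cells. In tumour 2 another 14 UMIs came from 4 of 61 unnamed cells led by endothelial genes. Ifnb1 was called higher in myeloid-like cells (adjusted p = 0.00552, edgeR). Ifna2 had 14 UMIs, all in 6 myeloid-like cells of tumour 4. Ifng, interferon gamma, had 6, 8 and 0 UMIs in the 3 libraries (the 0 of tumour 4 allowing up to 0.0685% of cells with a UMI), 5 of those in tumour 2 in 2 of its 20 T or NK cell-like cells. Ifnk, interferon kappa, had 3, 31 and 0 UMIs, and 23 of the 31 were in neural cells, 1 per cell.

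Receptors and Janus kinases were detected in both kinds of cell. Of the 5 receptors tested, 4 were called higher in myeloid-like cells. Il10rb, a receptor chain shared by interferon lambda and interleukin 10, was higher by 4.15 (log2), Ifngr1 by 2.44, Ifnar2 by 2.18 and Ifngr2 by 2.08, with adjusted p of 0.00167, 0.0052, 0.00286 and 0.0157 (edgeR). Ifnar1 had 50.04, 52.1 and 30.7 CPM in myeloid-like cells against 13.7, 23.7 and 27.6 CPM in neural cells (adjusted p = 0.0588, not called). Jak1 (1.97) and Jak2 (1.13) were called higher, whereas Tyk2 (1.5) and Stat3 (0.53) were not. In all, 25 of the 70 pathway genes tested rose in myeloid-like cells and 0 fell, where 8.95% of all genes rose and 0.532% fell, with a median of 1.09. They included the chemokines Ccl5 (5.18) and Cxcl9 (5.06), the factor Irf5 (5.07), the RNA sensor Tlr7 (6.84), the adaptor Tmem173 (STING, 3.32), the phosphatase Ptpn6 (5.38) and the peptide-loading protein Tapbp (1.84). Of other interferon-induced genes, Epsti1 (5.22), Slfn2 (4.63), Oasl1 (3.87) and Oas3 (3.07) had the largest fold changes.

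The ratio of summed type II to summed type I members set the families against each other within each class. Since genes differ in capture, the ratio compares cell classes and not ligands. It was 2.5, 1.05 and 2.75 in myeloid-like cells of tumours 1, 2 and 4 against 5.17, 1.90 and 3.34 in neural cells, lower in 3 of 3 tumours. It was 6.0, 2.49 and 3.98 in cycling against 4.58, 1.80 and 3.13 in non-cycling neural cells, higher in 3 of 3 (mean log2 difference 0.40, SD 0.06). The order of the tumours was thus 1, 4 and 2 in neural, cycling and non-cycling cells. The exact sign-flip permutation test (two-sided) gave p = 0.25 in both cases, the smallest 3 pairs allow. Directions held with a wider type I list, without Gbp2 and in thinned cells. OPC-like cells had ratios of 5.58, 2.22 and 3.74, and oligodendrocyte-like cells 1.34 in tumour 2 and 2.51 in tumour 4, lower than OPC-like cells in both (exact p = 0.50, the smallest possible).

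**Figure D4:**
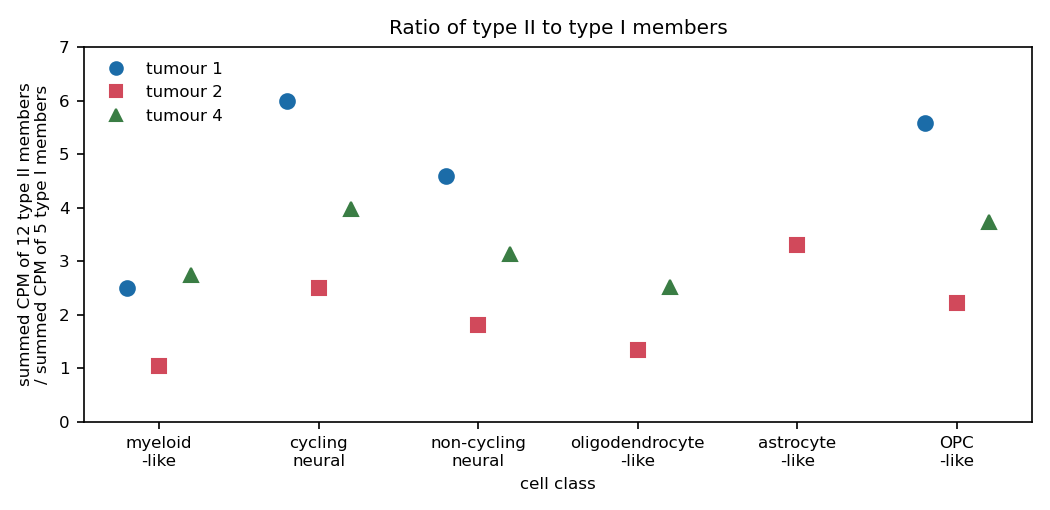
Ratio of summed CPM of the 12 type II members to the 5 type I members by cell class and tumour (1 point per tumour that holds the class). Cycling cells lie above non-cycling cells in every tumour, and myeloid-like cells lie between 1.05 and 2.75.

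Oligodendrocyte-like cells could be set against OPC-like cells in tumours 2 and 4. The 2 classes shared markers. The OPC markers summed to 1413 and 3574 CPM in oligodendrocyte-like cells of tumours 2 and 4, against 4925 and 3373 CPM in OPC-like cells. The oligodendrocyte markers summed to 77179 and 14485 CPM in oligodendrocyte-like cells, against 9373 and 3075 CPM in OPC-like cells. The 40 genes summed to 4661 and 7737 CPM in oligodendrocyte-like cells against 3600 and 7812 CPM in OPC-like cells. No gene of all 12064 tested was called by edgeR (0%), and 0 of the 40. At an unadjusted p under 0.05, 1 of the 40 was lower, against 196 of all 12064 genes, and DESeq2 called 0 of the 40. Type I members were higher in oligodendrocyte-like cells of both tumours for 4 of 5: Ifit3, for example, had 223 and 295 CPM in oligodendrocyte-like cells against 108 and 206 CPM in OPC-like cells. Irf7, the factor that amplifies type I interferon, had 378 and 288 CPM in oligodendrocyte-like cells against 145 and 210 CPM in OPC-like cells (log2 fold change 0.97, SE 0.389, adjusted p = 0.761, edgeR). The nominally lower gene, Irf1, had 62.6 and 104 CPM in oligodendrocyte-like cells against 117 and 203 CPM in OPC-like cells.

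At the main clustering, astrocyte-like cells formed a class in tumour 2 alone, so their values have no test. The class depended on the settings. It was found in tumour 1 and not in tumour 2 with stricter cell filters (34 cells, 5837 CPM of the 40 genes against 2955 CPM in OPC-like cells) and at resolution 0.5 (52 cells, 6957 against 3464 CPM). With interferon genes kept in the clustering it was found in tumour 1 (34 cells, 6248 against 3361 CPM) and in tumour 2 (200 cells, 10767 against 3738 CPM). Markers of other classes were also present. At the main clustering the astrocyte markers summed to 2639 CPM in astrocyte-like cells of tumour 2 and 590 CPM in its OPC-like cells. The OPC markers summed to 2958 and 4925 CPM in these classes, and the oligodendrocyte markers to 4933 and 9373 CPM. In tumour 2 at the main clustering 38 of the 40 genes were higher than in OPC-like cells, with a median ratio of 2.91, against 0.961 for all genes. The sum was 10847 CPM in astrocyte-like cells against 3600 CPM in OPC-like cells. Iigp1 had 973 CPM in astrocyte-like cells against 135 CPM in OPC-like cells, Irgm1 997 against 350, Gbp2 306 against 23.5 and Gbp4 368 against 44.8. All 12 type II members were higher, with a median ratio of 4.43, and all 5 type I members, with a median of 2.28. Ifit2 had 215 CPM in astrocyte-like cells against 19.1 in OPC-like cells and Irf1 576 against 117. The 2 exceptions were Ifi27, with 508 CPM in astrocyte-like cells and 511 in OPC-like cells, and Usp18, the protease that removes Isg15, with 82.2 and 88.8 CPM. The mitochondrial share was 10.2% in astrocyte-like cells against 6.55% in OPC-like cells, and its part in the difference was not tested. Among other pathway genes of this pair, Cxcl10 had 1658 CPM in astrocyte-like cells against 163 in OPC-like cells and the feedback inhibitor Socs1 579 against 65.3.

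The last question was whether the families move together from cell to cell. Non-cycling OPC-like cells were split in each tumour by their type II UMIs after thinning. Cells above the 75th percentile (116, 29 and 333 cells) were set against those at or below the 25th (260, 61 and 493 cells). The upper limit fell at 4, 2 and 8 UMIs and the lower at 1, 0 and 2 UMIs. On the upper limit lay 53, 29 and 90 cells, and on the lower one 137, 61 and 161. The sets are ends of a range of counts and were not defined as cell types. Type II members also differed between OPC-like clusters, from 871 to 2081 CPM in tumour 1, 890 to 1061 in tumour 2 and 1052 to 4067 in tumour 4. How far the split follows clusters was not tested. The type II members chose the cells and were not tested. Both sets came from the same libraries, and the 3 tumours are the replicates.

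All 5 type I members rose in type II-high cells. Ifit3 had 235, 238 and 588 CPM in type II-high cells of tumours 1, 2 and 4 against 31.4, 45.1 and 60.9 CPM in type II-low cells, higher by 3.00 (log2, SE 0.187, adjusted p = 5.59e-54, edgeR). Ifit1 had 227, 407 and 501 CPM in type II-high cells against 39.6, 90.3 and 82.7 CPM in type II-low cells (2.47), and Oasl2 194, 337 and 366 CPM against 37.9, 67.7 and 59.2 CPM (2.46). In none of these 3 did the groups overlap, but the share of all genes without overlap is not reported here. The edgeR test pools its estimate of spread over genes, so a p-value this small does not rest on 3 tumours alone. Ifit2 (2.74) was close to level in tumour 2, with 18.7 CPM in type II-high against 17.6 CPM in type II-low cells. Oas1a (2.60) went the other way there, with 0 UMIs in type II-high cells against 12.5 CPM in type II-low cells.

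Of the 28 members outside the type II list, 27 were called higher and 1 lower, where 4.37% of the 10288 genes tested were higher and 1.61% lower (5.99% in either direction). The median was 2.09 for the 28 and -0.01 for all genes. Ifi44 (3.4), Trim30a (2.99), Parp14 (2.55) and Batf2 (2.5) had the largest fold changes of the 23 genes outside both lists. Ifi44 had 64.5, 18.7 and 115 CPM in type II-high cells against 4.48, 2.51 and 11.9 CPM in type II-low cells. The exception was Ifi27, with 127, 397 and 201 CPM in type II-high cells against 158, 572 and 363 CPM in type II-low cells, which fell by 0.59 on the log2 scale (SE 0.158, adjusted p = 0.0057, edgeR). Ifi35 was called higher though it went the other way in tumour 2, with 32.7 CPM in type II-high against 45.1 CPM in type II-low cells. DESeq2 called 22 higher and 0 lower, so the call of Ifi27 rests on the choice of test. The calls also rest on the tumour as a block: without it 0 were called and 25 were higher at an unadjusted p under 0.05. With coarser clusters (Leiden resolution 0.5), which left 2 tumours, the counts were again 0 called and 25 nominally higher. These alternative counts have no share of all genes beside them.

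**Figure D5:**
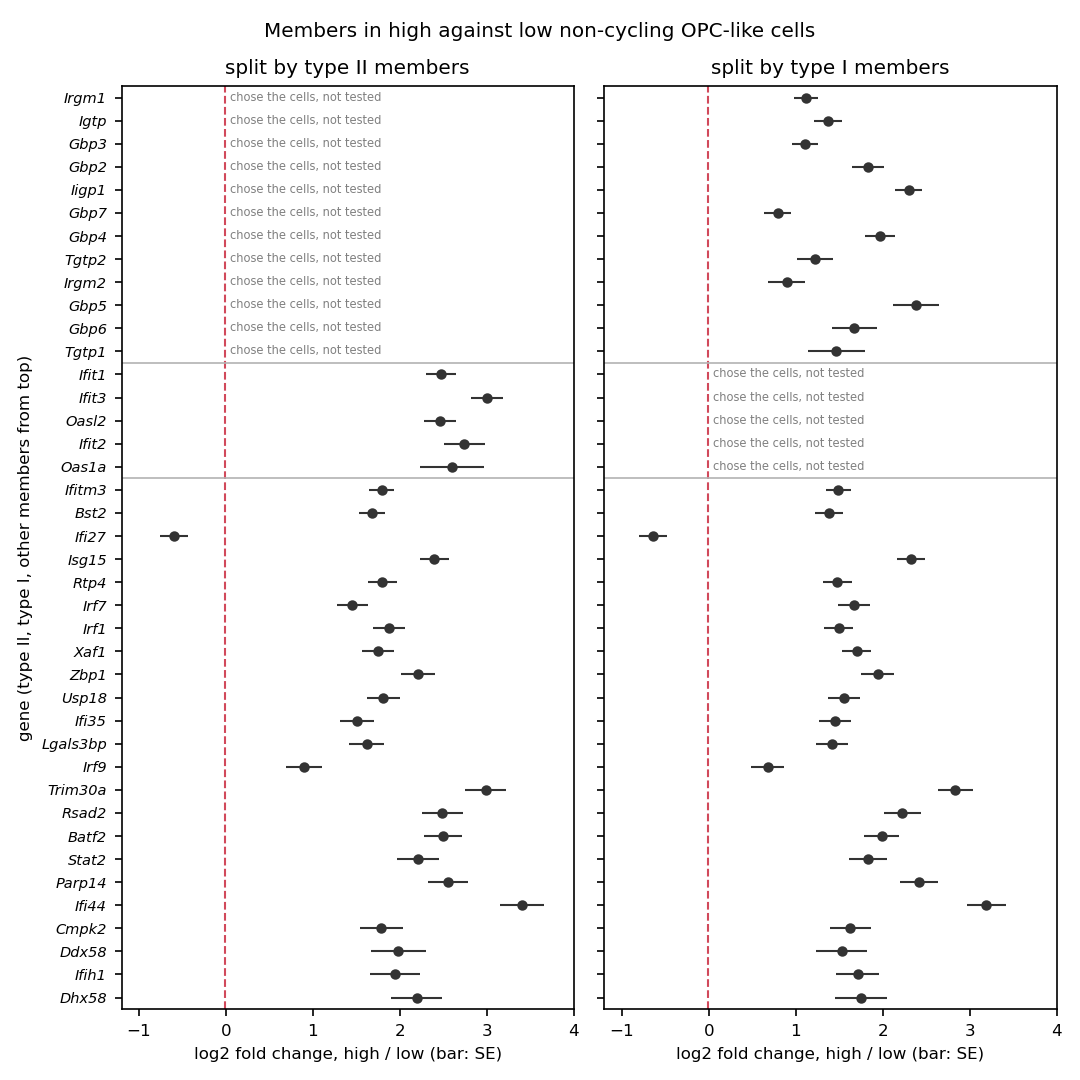
Fitted log2 fold changes (points) in high over low non-cycling OPC-like cells, split by type II members (left) and by type I members (right). Bars are standard errors worked back from the edgeR test statistic, not the spread between tumours. The dashed line is the median of all genes tested. All members tested lie right of it except Ifi27, at -0.59 on the left and -0.64 on the right.

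The reverse split, by the type I UMIs, compared 93, 30 and 381 type I-high cells of tumours 1, 2 and 4 with 394, 92 and 610 type I-low cells, all of them at 0 type I UMIs. All 12 type II members were called higher in type I-high cells, though in tumour 2 only 10 of the 12 were higher by CPM. Gbp5 (2.38), Iigp1 (2.30), Gbp4 (1.97) and Gbp2 (1.83) led, and Gbp7 (0.79) and Irgm2 (0.89) had the smallest fold changes. Iigp1 had 337, 304 and 691 CPM in type I-high cells of tumours 1, 2 and 4 against 60.1, 79.6 and 140 CPM in type I-low cells (SE 0.156, adjusted p = 6.41e-14, edgeR). Gbp2 had 342 and 918 CPM in type I-high cells of tumours 1 and 4 against 87.3 and 232 CPM in type I-low cells, but 22.1 CPM in type I-high against 30.4 CPM in type I-low cells of tumour 2. Of 35 members tested, 34 were higher and 1, again Ifi27 (-0.64, adjusted p = 0.0127, edgeR), lower, where 4.2% of 10533 genes were higher and 1.38% lower (5.57% in either direction). The medians were 1.63 for the 35 and -0.01 for all genes, and DESeq2 called 27 higher and 0 lower. By CPM 34, 30 and 34 of the 35 were higher in tumours 1, 2 and 4, with median ratios of 3.14, 1.60 and 3.29. Of all 10533 genes, 4913, 4711 and 5349 were higher by CPM. Without the tumour block 0 were called, with 23 higher at an unadjusted p under 0.05.

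Type II-high cells also differed in the rest of the pathway. All 12 antigen processing genes tested rose, from H2-D1 (0.42) to Tap2 (1.86), as did all 22 other interferon-induced genes tested, led by Ifit3b (3.24). Psmb8 was listed in both groups and is counted in each. In tumour 2, however, the immunoproteasome subunit Psmb10 had 46.8 CPM in type II-high against 57.7 CPM in type II-low cells. Jak1, Jak2 and Stat3 were not called. None of the 5 receptors tested was called (1 nominally higher, Ifnar1, at 0.68). Cxcl10 (2.58), which attracts T cells, the checkpoint ligand Cd274 (3.22) and the inhibitors Socs1 (2.33) and Socs3 (1.32) rose. In all, 43 of 57 pathway genes tested rose and 0 fell, where 4.37% of all genes rose and 1.61% fell.

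Other measures moved with the split. The mitochondrial share was 5.49%, 9.72% and 8.19% in type II-high cells of tumours 1, 2 and 4 against 4.84%, 6.08% and 4.24% in type II-low cells, and median UMIs were 9519, 6615 and 7207 against 10581, 5855 and 11227. Without cells over 7% mitochondrial UMIs, chosen after seeing the data, tumours 1 and 4 were left for the test, and 27 were called higher and 1 lower. The 13 microglia markers summed to 132, 636 and 86.9 CPM in type II-high cells against 127, 497 and 68.2 CPM in type II-low cells. With cells chosen on one part of their UMIs and tested on the rest, also added after seeing the data, 25 of 26 were higher and 0 lower.

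Over single non-cycling OPC-like cells, the type I and type II sums correlated at r = 0.46, 0.52 and 0.55 (n = 598, 164 and 1562 cells of tumours 1, 2 and 4; Spearman's rho 0.37, 0.25 and 0.58). The cells of a tumour share its library, and all were thinned to 1 depth. The sum of all 40 correlated with the mitochondrial share at 0.31, 0.36 and 0.43, and with the cell's total UMIs at -0.15, -0.07 and -0.26. Ifi27 alone had a negative r with both families in every tumour (mean -0.11 with each). Among single genes, the mean r with the sum of the other type II members was highest for Iigp1 (0.45), Isg15 (0.41) and Ifit3 (0.40). In sparse counts such r are bounded by how often a gene is seen.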

How the data were processed

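The deposited tables hold raw UMI counts per gene and cell, which the authors made with Cell Ranger 1.3.0 (STAR 2.5.1, mm10), per the submitters' processing notes, from 10x Single Cell 3′ v2 libraries. UMI counts were not scaled by gene length. Genes differ in capture, so where genes are ranked by level, the order is one of counts and not of true abundance. Everything else was computed here. Barcodes under 500 genes or over 20% mitochondrial UMIs were dropped. Each tumour was clustered alone (scanpy 1.11.5, Leiden resolution 1). Members and listed pathway genes were left out of the variable genes, and unlisted interferon-induced genes were not. Clusters were named from marker lists. The naming limits were set after marker levels and member levels of the clusters had been seen. Scrublet called 0, 7 and 0 doublets and was taken not to have worked, so none were removed.

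The members and lists were chosen with earlier results of these data known. Counts were summed per tumour and class, and tested with edgeR 4.0.16 (R 4.3.3; quasi-likelihood, tumour as a block, Benjamini-Hochberg over all genes tested, adjusted p under 0.05), after a check on simulated data; DESeq2 1.42.0 was an alternative. A class needed 20 cells in a tumour. Both sums of a pair come from the same animal and library, and their deviations from the group means correlated in every tumour (cycling 0.868, 0.753 and 0.813; myeloid-like 0.658, 0.624 and 0.626; oligodendrocyte-like 0.492; type II split 0.779, 0.749 and 0.783; type I split 0.794, 0.771 and 0.799). With 3 tumours, p-values concern these tumours only. The edgeR test estimates the spread partly by pooling over genes, so its p-values do not measure the spread of 1 gene between 3 tumours alone. Each SE of a fold change was worked back from the fold change and that test's statistic, and has the same limit. Intervals and floors (3 counts) cover counting error only. Where groups are said not to overlap, the values are described, and the share of all genes without overlap is not reported here. Per-cell values, cycling calls (at least 5 UMIs of 56 cycling genes, non-cycling at most 1) and splits (25th and 75th percentiles) used cells thinned to 2000 UMIs.

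Genes were named by rule: the 8 highest by mean level in neural cells, the 6 with the largest ratio between tumours in OPC-like cells, up to 8 called genes per direction in each test, all type I and type II members, ligands, receptors and signal transducers, and up to 4 called genes per direction of each other pathway group; other genes named were chosen after their values were seen. Of 89 other pathway symbols, 83 were in the tables. Gbp6 is listed on 2 entries (41 rows for 40 genes): levels sum them and tests use the entry with more counts. A pathway gene is not reported here by name.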

Additional observations from a re-analysis of the deposited data

How the results depend on the processing

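Under the alternatives run, no direction of a called gene was reversed. In cycling cells, where 1 gene was called lower, DESeq2 gave 4, no filter on low counts 2, no tumour block 0, stricter cell filters (at least 1000 genes, at most 10% mitochondrial) 0, a cycling limit of 10 UMIs 7, OPC-like cells alone 17 (2 tumours) and, added after seeing the data, leaving out cells over 7% mitochondrial UMIs 0; leaving out 1 tumour gave 0 to 33. For myeloid-like cells (7 higher, 0 lower), no block, interferon genes kept in the clustering and Leiden resolution 0.5 each gave 2 higher (the clusterings with 2 tumours); DESeq2's size factors, DESeq2 and no filter each gave 1 lower; leaving out 1 tumour gave 2 to 10 higher and 0 to 4 lower. For the type II split (27 higher, 1 lower), no block and resolution 0.5 gave 0 higher, and DESeq2, no block, interferon genes kept, resolution 0.5, any UMI against none and, added later, a split on separate UMIs gave 0 lower; leaving out 1 tumour gave 23 to 27 higher and 0 to 1 lower. For the type I split (34 higher, 1 lower), no block gave 0 and resolution 0.5 gave 22 higher, and DESeq2, no block, interferon genes kept and resolution 0.5 gave 0 lower; leaving out 1 tumour gave 23 to 34 higher and 0 to 1 lower. The causes were not tested, other than that fewer tumours entered some fits. Counts from these fits and from DESeq2, here and above, stand without the share of all genes called, except where it is printed. As printed, such counts describe the members only and are not set against all genes.

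Without Ifitm3 and Bst2 the sums in neural cells of tumours 1, 2 and 4 were 3338, 5363 and 5802 CPM. With all members they were 4645, 6271 and 8737 CPM, so tumours 2 and 4 lay closer without these genes. In OPC-like cells the sums without them were 2686, 3113 and 5231 CPM. At resolution 0.5 the OPC-like sum of tumour 2, with all members, was 9112 CPM, which turned the order of tumours 2 and 4. With the wider type I list the ratio was 1.61, 0.721 and 1.17 in neural, 1.64, 0.757 and 1.28 in OPC-like and 0.651, 0.193 and 0.689 in myeloid-like cells of tumours 1, 2 and 4. Of single genes, 774 values kept their side of the threshold and 179 lost it. Oligodendrocyte-like cells could not be tested with 1 tumour left out or with strict filters, which left 1 pair. Small classes (81 myeloid-like cells in tumour 4, 29 type II-high cells in tumour 2) limit the depth behind their values.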

Other observations

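Small groups of cells outside the comparisons also expressed the genes. In tumour 2, 61 unnamed cells led by endothelial genes (Cldn5 and Flt1 among them) had 6577 CPM of the 40 genes, and 20 T or NK cell-like cells had 2431 CPM. Within the myeloid-like class of tumour 2, the 34 macrophage-like cells had 6631 CPM. Each is 1 value from 1 library, with no test.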
